A study of Mus musculus with 15 samples.

Results

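The 7 chemokine genes Ccl3, Ccl4, Ccl5, Xcl1, Cxcl10, Ccl1 and Ccl9, whose products activated T cells are known to secrete, were followed through the priming of mouse CD8+ T cells. They were taken by gene symbol from tables of 17493 genes, and all 7 were present. The cells were CD8+ OT-I T lymphocytes taken from the spleen and lymph nodes of females of strain C57BL/6-Tg(TcraTcrb)1100Mjb/Crl, which carry a transgenic T cell receptor for an ovalbumin peptide. No age was given, and all 5 groups of 3 libraries shared this strain and sex. Unstimulated cells had no treatment and were taken at 0 h. IF cells had 5 ng/ml of immunofilaments, synthetic polymers labelled IF-pMHC(SIIT)/IL-2, for 8 h or 22 h. DC cells were cultured for 8 h or 22 h with dendritic cells grown with Flt3 ligand and pulsed with SIITFEKL, a variant of that ovalbumin peptide, at 20000 dendritic cells to 50000 T cells per well. After staining, living cells that were CD8+ and CD103- were sorted, and the RNA was sequenced by an adapted CEL-seq protocol, which tags the 3′ ends of transcripts. The label of the immunofilaments names IL-2 and that of the dendritic cells does not, and no group was kept unstimulated to 8 h or 22 h. Stimulus and time in culture therefore cannot be told apart in any comparison with the unstimulated cells.

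Chemokines are small secreted proteins that draw leukocytes carrying the matching receptor. Ccl3, Ccl4 and Ccl5 attract T cells, monocytes and dendritic cells. Xcl1 is the ligand of Xcr1, the receptor of cross-presenting dendritic cells, and activated CD8+ T cells and NK cells are its main sources. Cxcl10 is the interferon-induced ligand of Cxcr3 on activated T cells, Ccl1 is the ligand of Ccr8, and Ccl9 acts through Ccr1. T cells make Ccl3, Ccl4 and Xcl1 soon after their receptor is engaged, whereas Ccl5 is known as a late product of T cells that memory CD8+ T cells keep as ready message. The design asks of these genes whether the synthetic filaments and the dendritic cells gave the same chemokine message levels at each time.

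In the GENCODE M21 annotation of GRCm38 (mm10), all 7 genes are protein coding. Ccl5 (chr11:83525778-83530518), Ccl9 (chr11:83572919-83578636) and Ccl3 (chr11:83647844-83649355) lie on the minus strand of chromosome 11 and Ccl4 (chr11:83662584-83664683) on its plus strand, all 4 within 138.9 kb. Ccl1 (chr11:82176657-82305690), Xcl1 (chr1:164931644-164935527) and Cxcl10 (chr5:92346638-92348889) are on minus strands. Exons of Cxcl10 overlap Art3 and exons of Xcl1 overlap Gm20743, both on the opposite strand. Art3 had 37 counts over the 15 libraries together, and Gm20743 was not analysed here. A RefSeq model of Ccl4 on the same build starts at 83648624, inside Ccl3, on the opposite strand. Whether the authors' counting used strand is not given in the sources used here, so reads of Ccl3 and of that Ccl4 model could not be told apart with certainty.

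The promoters of Cxcl10 and Ccl9 are shown because these genes went opposite ways in the direct test of the stimuli at 22 h, Cxcl10 lower and Ccl9 higher with filaments. RefSeq promoter windows (GRCm38.p6, 250 bases before the start site to 50 after it) matched 5 of the 7 genes, namely Ccl3, Xcl1, Cxcl10, Ccl1 and Ccl9. Both strands were searched for the ISRE core bound by interferon-activated factors (TTTC, any 2 bases, TTTC) and for the AP-1 site TGANTCA. The NF-kB consensus was searched on the gene's own strand alone. Capitals mark the matches, and both windows are written 5′ to 3′ along the gene's own (minus) strand, at chr5:92348840-92349139 for Cxcl10 and chr11:83578587-83578886 for Ccl9.
Cxcl10: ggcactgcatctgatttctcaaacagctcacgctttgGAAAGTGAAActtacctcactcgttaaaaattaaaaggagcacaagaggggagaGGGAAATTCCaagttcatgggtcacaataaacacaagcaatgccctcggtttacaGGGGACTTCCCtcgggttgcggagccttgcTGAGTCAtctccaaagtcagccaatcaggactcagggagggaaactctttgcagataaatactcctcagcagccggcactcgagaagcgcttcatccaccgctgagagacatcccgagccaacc
Ccl9: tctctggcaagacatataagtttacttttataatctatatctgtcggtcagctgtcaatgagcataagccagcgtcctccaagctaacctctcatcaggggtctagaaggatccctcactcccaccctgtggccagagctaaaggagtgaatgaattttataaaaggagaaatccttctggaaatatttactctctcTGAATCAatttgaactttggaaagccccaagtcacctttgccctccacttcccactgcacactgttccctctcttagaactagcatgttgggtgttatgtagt
In the Cxcl10 window the first capitals, at -213 from the start site, are an ISRE core on the other strand. The NF-kB consensus matched at -159, -104 and -103, the last pair overlapping, and the AP-1 site at -74. The Ccl9 window held an AP-1 site at -53, no ISRE core, and no NF-kB match on the strand searched. Its letters ggaaagcccc fit the NF-kB consensus when read on the other strand, which was not searched for it. On the strand searched Ccl1 had 1 NF-kB match, at -196. The Ccl3 and Xcl1 windows had no match to any of the 3 patterns as searched. Among 32851 RefSeq promoter windows of the same 300 bases, 5.89% held the NF-kB consensus on the 1 strand searched. On either strand, 3.44% held the ISRE core and 7.81% the AP-1 site. These matches describe the letters of each window and do not show that a factor was bound.

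Levels are given as CPM, each gene's count relative to its library's total after scaling by TMM factors, and levels of different genes are not compared. Library totals ranged from 2892874 to 19806730 counts. IF 8 h was the shallowest group (2892874 to 5572030), and 1 IF 22 h library was the deepest. The T cell markers Cd8a and Cd3e were at 419 CPM or more and 474 CPM or more in every library. Of the 9 T cell markers tested, 6 to 9 were lower in each stimulated group than in unstimulated cells, against 3.44% to 4.72% of all genes. Between the stimuli, 1 of the 9 was higher with filaments at 8 h and 4 at 22 h, against 0.231% and 1.23% of all genes, and none was lower. Tests used edgeR's quasi-likelihood model over all 15 libraries with Benjamini-Hochberg adjustment over the 10831 genes that passed a low-count filter, and the threshold was an adjusted p of 0.05. All 7 chemokines passed that filter, Ccl1 through the 22 h groups, where it was high. A change is written below as the log2 fold change ± its standard error (SE). In RNA from a whole population, fewer cells making a message and less message per cell cannot be told apart. The titles number the 3 libraries of every group Don1, Don2 and Don3, a name that reads like donor, but the labels do not define it or say that a number marks the same mouse in each group. The tests therefore measure the spread between these samples, and results with that number as a block are given where they change a call.

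**Figure D1:**
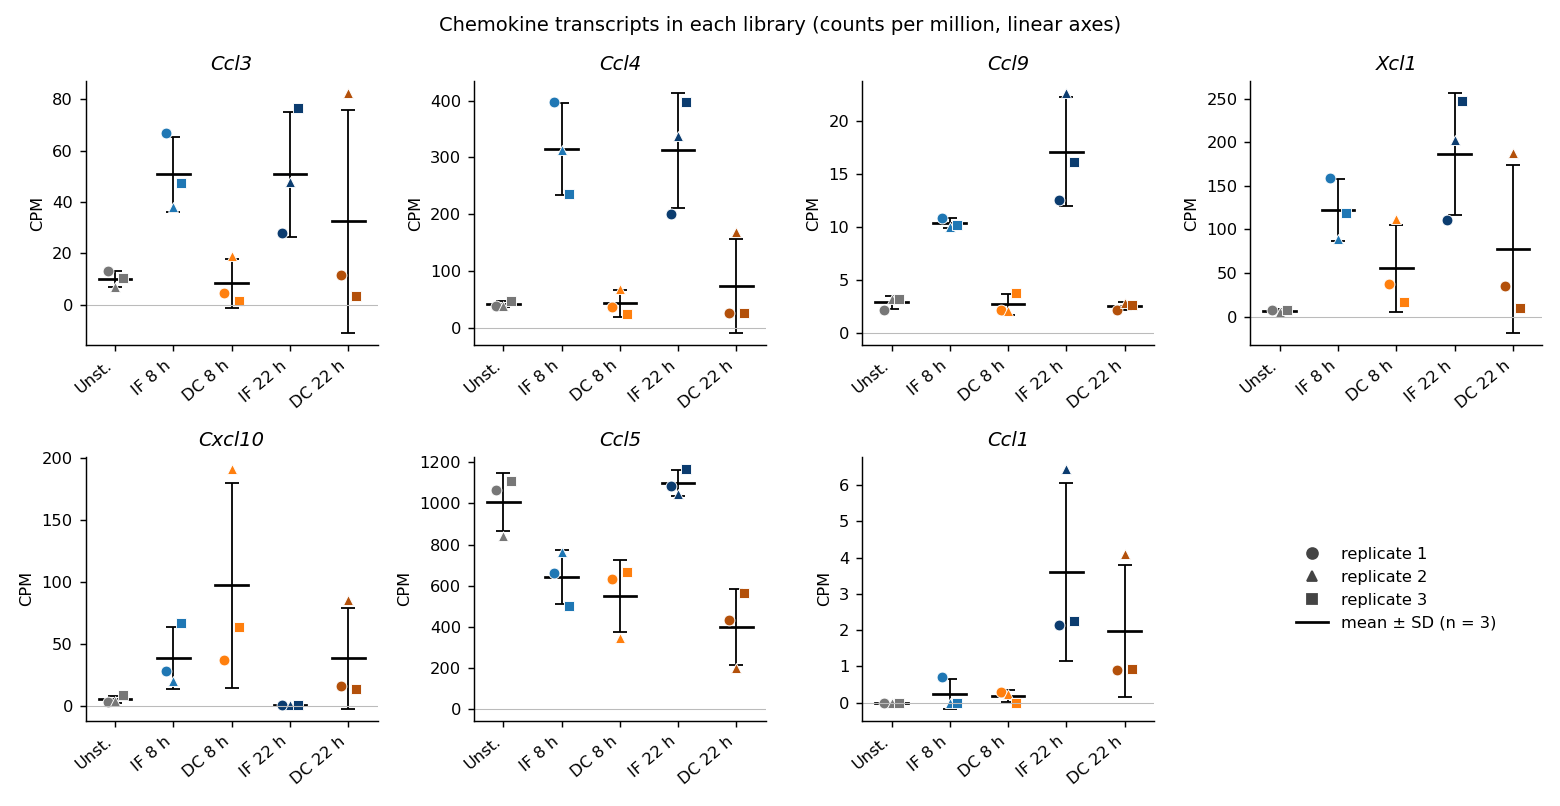
Level of each chemokine in CPM (vertical, linear axes) in the 3 libraries of each of the 5 groups (horizontal). Symbols are the replicates, and bars give the mean ± SD (n = 3). Ccl9 separates the IF libraries from all others, Cxcl10 is near 1 CPM in the IF 22 h libraries, and DC replicates 2 (triangles) lie above the other DC replicates for Ccl3, Ccl4, Xcl1 and Cxcl10.

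With filaments 4 of the 7 chemokines were past the threshold and higher at 8 h: Ccl4, Xcl1, Cxcl10 and Ccl9. None was past it and lower, and 7.76% of all tested genes passed the threshold in that comparison (3.04% higher and 4.72% lower). With dendritic cells at 8 h, Xcl1 and Cxcl10 were past the threshold and higher and none was past it and lower, against 6.82% of all genes (2.75% higher and 4.07% lower). At 22 h with filaments, Ccl4, Xcl1, Ccl9 and Ccl1 were past the threshold and higher and none was past it and lower, against 6.08% of all genes (2.63% higher and 3.44% lower). At 22 h with dendritic cells, Xcl1, Cxcl10 and Ccl1 were past the threshold and higher and Ccl5 past it and lower, against 7.76% of all genes (3.41% higher and 4.35% lower). The median log2 fold change of the 7 was 2.79 for IF 8 h, 2.56 for IF 22 h and 1.68 for DC 22 h. For DC 8 h it was 0.053, and the median over all tested genes lay between 0.011 and 0.037 in these 4 comparisons. With Ccl1 set to its bound, since it had no count in unstimulated cells, the IF 8 h median was 2.34 and the DC 8 h median 0.013. Scaled by library size alone, 74.1% to 85.4% of all calls in these 4 comparisons were higher, against 39.2% to 43.9% with TMM, and no called chemokine turned its direction. Ccl1 passed the low-count filter through the 22 h groups, so its place in both 22 h counts follows from that filter and supports nothing. The 4 comparisons share the unstimulated libraries.

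**Figure D2:**
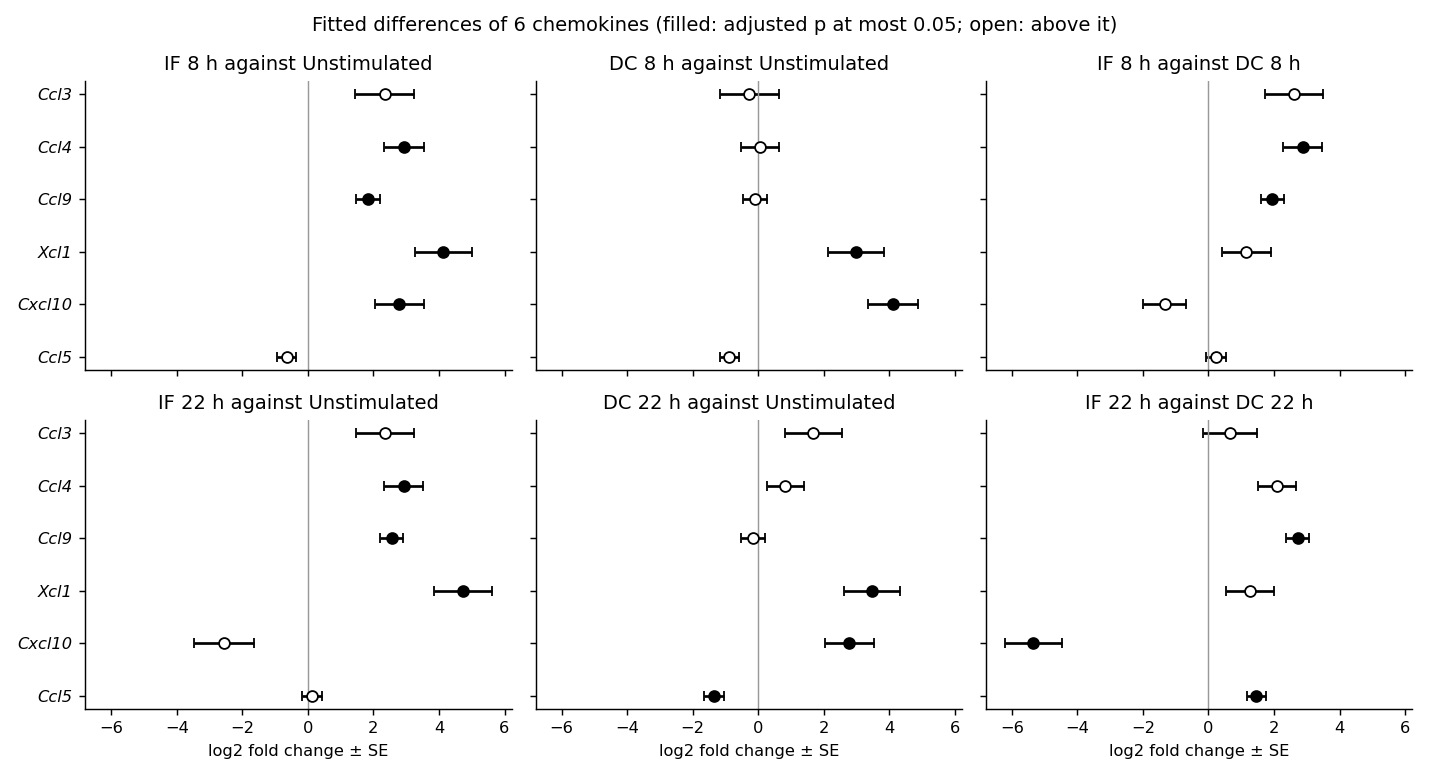
Fitted log2 fold change ± SE (horizontal) of 6 chemokines (vertical) in 6 comparisons. Filled points passed the adjusted p of 0.05, open points did not. Ccl1 is left out because it had no counts in unstimulated cells. Ccl4 and Ccl9 are to the right of 0 in both IF comparisons with unstimulated cells, and Cxcl10 is at -5.34 for IF 22 h against DC 22 h.

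Ccl4, also called MIP-1 beta, was higher in every IF library than in any unstimulated one. It had 38.8, 38.0 and 47.2 CPM in the unstimulated libraries (replicates 1, 2 and 3), 397, 313 and 236 CPM at IF 8 h, and 201, 338 and 398 CPM at IF 22 h. The IF groups at 8 h and 22 h overlapped each other and lay far above the unstimulated range. With dendritic cells it had 36.25, 68.7 and 23.35 CPM at 8 h and 25.5, 169 and 25.6 CPM at 22 h. Only DC replicate 2 was above the unstimulated range at either time. The rise was 2.93 ± 0.60 at IF 8 h (adjusted p = 0.00742, edgeR) and 2.92 ± 0.60 at IF 22 h (adjusted p = 0.00773), or 7.64-fold at 8 h. Both calls were kept in all 6 fits that left out 1 library of the groups compared. With dendritic cells the change missed the threshold at 8 h (adjusted p = 0.975) and at 22 h, where it was 0.83 ± 0.57 (adjusted p = 0.413) and turned to -0.67 without DC 22 h replicate 2.

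Ccl3, the Ccr1 ligand MIP-1 alpha, also had all IF libraries above the unstimulated ones, with more spread than Ccl4. Unstimulated libraries had 12.9, 6.87 and 10.2 CPM. The IF libraries had 66.9, 38.1 and 47.4 CPM at 8 h and 28.1, 47.8 and 76.6 CPM at 22 h, all above the unstimulated range. The DC libraries had 4.36, 19.1 and 1.47 CPM at 8 h and 11.4, 82.5 and 3.33 CPM at 22 h, on both sides of that range. Differences from unstimulated cells of 2.34 ± 0.90 at IF 8 h (adjusted p = 0.126, edgeR) and 2.34 ± 0.89 at IF 22 h (adjusted p = 0.138) did not pass the threshold. Ccl3 passed in none of the 9 comparisons, although 4 had an unadjusted p under 0.05, and DESeq2 also called 0. When only the 2 groups compared entered the fit, both IF differences passed (adjusted p = 0.000198 at 8 h and 0.00459 at 22 h, or 0.000170 and 0.00836 with the replicate number as a block). The spread within DC 22 h came with replicate 2: the highest replicate was 24.8 times the lowest, against 1.88 times in unstimulated cells.

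Ccl5, also called RANTES, was at its highest in unstimulated and IF 22 h cells. Unstimulated libraries had 1067, 844 and 1111 CPM. The IF libraries had 660.3, 764 and 502 CPM at 8 h and 1084, 1047 and 1169 CPM at 22 h. Ccl5 was thus below the unstimulated range at IF 8 h and within or just above it at IF 22 h. The DC libraries had 633, 346 and 665 CPM at 8 h and 433, 197 and 565 CPM at 22 h, all below the unstimulated range. Of the 4 comparisons with unstimulated cells, the fall passed the threshold at DC 22 h (-1.34 ± 0.30, adjusted p = 0.0119, edgeR), and it did so in all 6 fits that left out 1 library. At DC 8 h it was -0.88 ± 0.30 (adjusted p = 0.0936) and at IF 8 h -0.65 ± 0.30 (adjusted p = 0.206). The DC 8 h fall passed in DESeq2 (adjusted p = 0.0429) and when only both groups entered the fit (0.0309, or 0.00655 with the replicate number as a block). The IF 8 h fall also passed when only both groups entered (0.0148, or 0.0293 with the block). Whether the fall differed between these groups was not shown by these separate tests.

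Xcl1, the Xcr1 ligand lymphotactin, was higher than in unstimulated cells in all 12 stimulated libraries. It had 7.63, 5.42 and 7.91 CPM unstimulated. It reached 159, 89.2 and 119 CPM at IF 8 h and 110.5, 202.5 and 247 CPM at IF 22 h. With dendritic cells it had 37.6, 112 and 16.3 CPM at 8 h and 34.7, 188 and 9.83 CPM at 22 h. No stimulated library overlapped the unstimulated ones, and the IF and DC libraries overlapped each other at both times. The differences were 4.13 ± 0.88 at IF 8 h (adjusted p = 0.00911, edgeR), 4.74 ± 0.89 at IF 22 h (adjusted p = 0.00414), 2.98 ± 0.85 at DC 8 h (adjusted p = 0.0431) and 3.47 ± 0.86 at DC 22 h (adjusted p = 0.0198). Both IF calls were kept in all 6 fits without 1 library. The DC calls rested on single libraries: at DC 8 h the adjusted p was 0.229 without DC replicate 2 (difference 1.96), 0.0598 without DC replicate 1 and 0.118 to 0.151 without any 1 unstimulated library. At DC 22 h it was 0.169 without DC replicate 2 (difference 1.68) and 0.0712 to 0.0886 without any 1 unstimulated library. The DC 8 h call was also lost with the replicate number as a block (adjusted p = 0.0626), and the DC 22 h call when only both groups entered the fit (adjusted p = 0.0520, or 0.130 with the block). NK cells also make Xcl1, and the summed level of the 6 NK cell markers in the tables was 49.8 to 66.3 CPM unstimulated, 24.3 to 39.9 CPM at IF 8 h, 28.9 to 46.2 CPM at DC 8 h, 96.3 to 107 CPM at IF 22 h and 35.4 to 54.6 CPM at DC 22 h. Ncr1, which defines NK cells, had 32 counts in all in unstimulated cells, 4 at IF 22 h and none in the IF 8 h, DC 8 h and DC 22 h libraries. Fcer1g and Klrb1c, also on that list, went from means of 43.8 and 6.24 CPM unstimulated to 78.6 and 12.6 CPM at IF 22 h. The cells had been sorted as CD8+ and CD103-, a gate that would remove most NK cells, and the part of NK cell RNA in the Xcl1 levels was not tested.

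Cxcl10, the interferon-induced Cxcr3 ligand, rose by 8 h with both stimuli and at 22 h was lowest in the IF libraries. Unstimulated libraries had 3.96, 4.16 and 9.08 CPM. At 8 h the IF libraries had 28.4, 20.6 and 67.0 CPM and the DC libraries 37.5, 191 and 63.4 CPM. All 6 were above the unstimulated range, and both groups overlapped. At 22 h the DC libraries had 16.05, 85.3 and 14.3 CPM and the IF libraries 1.19, 0.956 and 0.766 CPM. The 3 IF 22 h libraries were below every other library, unstimulated ones included. The rise was 4.12 ± 0.76 at DC 8 h (adjusted p = 0.00330, edgeR) and kept its call in all 6 fits without 1 library, falling to 3.17 without DC replicate 2. At IF 8 h it was 2.79 ± 0.75 (adjusted p = 0.0316), and the adjusted p was 0.0546 to 0.141 without IF 8 h replicate 1 or 3 or any 1 unstimulated library, with the difference at 2.14 without IF 8 h replicate 3. At DC 22 h it was 2.78 ± 0.74 (adjusted p = 0.0286), with 0.0522 to 0.116 without any 1 unstimulated library and 0.201 without DC 22 h replicate 2 (difference 1.46). That call was also lost when only both groups entered the fit (adjusted p = 0.0508, or 0.0983 with the replicate number as a block). The IF 22 h level did not pass against unstimulated cells (-2.56 ± 0.90, adjusted p = 0.110), but did in DESeq2 (adjusted p = 0.0301) and when only both groups entered the fit (adjusted p = 0.0244). With the replicate number as a block added to that last fit, it did not pass.

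Ccl9, a Ccr1 ligand known mainly from myeloid cells, was higher with filaments at both times. It had 2.20, 3.25 and 3.26 CPM unstimulated, 10.9, 9.95 and 10.2 CPM at IF 8 h and 12.5, 22.6 and 16.1 CPM at IF 22 h. The DC libraries had 2.18, 2.11 and 3.82 CPM at 8 h and 2.16, 2.88 and 2.65 CPM at 22 h. The IF libraries stood apart from all 9 others, and DC and unstimulated libraries overlapped. The rise was 1.84 ± 0.36 at IF 8 h (adjusted p = 0.00523, edgeR) and 2.56 ± 0.36 at IF 22 h (adjusted p = 0.000372), and both calls held in all 6 fits without 1 library. With counts thinned to the smallest library the IF 8 h call was lost (1.40, adjusted p = 0.104). In DC cells the adjusted p was 0.916 at 8 h and 0.839 at 22 h. Of 10 macrophage and monocyte markers, 3 were tested, and 0 passed in either IF comparison with unstimulated cells (0 at an unadjusted p under 0.05 in edgeR, and 0 in DESeq2). The markers Lyz2 and Csf1r reached at most 0.663 and 2.71 CPM in any library. Cd68 averaged 3.86 CPM unstimulated, 2.46 CPM at IF 8 h, 3.53 CPM at DC 8 h, 9.23 CPM at IF 22 h and 2.64 CPM at DC 22 h, highest where Ccl9 was highest, and the summed level of the 8 in the tables was 6.17 to 10.7 CPM unstimulated, 1.96 to 8.62 CPM at IF 8 h, 4.60 to 5.25 CPM at DC 8 h, 7.62 to 15.7 CPM at IF 22 h and 2.05 to 8.99 CPM at DC 22 h. Their part in the Ccl9 levels was not tested.

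Ccl1, the Ccr8 ligand, was a late and low message. It had no count in the 3 unstimulated libraries, whose totals together allow up to 0.180 CPM at the 3 counts that a count of 0 can hide. At 8 h it had 4, 0 and 0 counts with filaments and 3, 2 and 0 with dendritic cells, too few for a fold. At 22 h it had 18, 54 and 44 counts with filaments (2.14, 6.45 and 2.25 CPM) and 8, 37 and 11 with dendritic cells (0.910, 4.09 and 0.940 CPM). All 6 of the 22 h libraries were above all 9 earlier ones, and replicate 2 was the highest in both 22 h groups. The mean was at least 20.05-fold higher at IF 22 h and at least 10.99-fold higher at DC 22 h than the floor of 3 counts over the unstimulated group, and at least 12.2-fold and 5.13-fold higher without that group's replicate 2. Because Ccl1 entered the test through these high groups, its values against unstimulated cells at IF 22 h (adjusted p = 0.0184, edgeR) and DC 22 h (adjusted p = 0.0297) are given as a description. Without any 1 unstimulated library the adjusted p was 0.0580 to 0.0680 and 0.0823 to 0.0952 for these groups, and without that group's replicate 2 it was 0.0711 and 0.104. The 22 h against 8 h differences did not pass (adjusted p = 0.184 for filaments and 0.343 for dendritic cells).

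Set directly against each other at 8 h, 2 of the 7 chemokines differed between the stimuli, against 0.665% of all genes tested (0.231% higher with filaments and 0.434% lower). Ccl4 was 2.88 ± 0.60 higher with filaments (adjusted p = 0.0333, edgeR), or 7.36-fold, and Ccl9 was 1.94 ± 0.35 higher (adjusted p = 0.0146), or 3.85-fold. For both, no IF 8 h library overlapped a DC 8 h library. Both calls were near the threshold: without 1 library the Ccl4 adjusted p rose to between 0.0647 and 0.161 for each IF 8 h replicate and for DC 8 h replicates 1 and 3. The Ccl9 one rose to between 0.0514 and 0.0792 for IF 8 h replicates 1 and 3 and DC 8 h replicates 1 and 2. The Ccl9 call was also lost with counts thinned to the smallest library (1.62, adjusted p = 0.238), IF 8 h being the shallowest group, and when only both groups entered the fit (adjusted p = 0.0895, or 0.356 with the replicate number as a block). Ccl3 did not pass (2.61 ± 0.89, adjusted p = 0.319) although its groups did not overlap, as was so for 13.5% of all genes. Xcl1 (1.15 ± 0.74, adjusted p = 0.775) and Cxcl10 (-1.33 ± 0.66, adjusted p = 0.631) overlapped, and the Cxcl10 difference was -0.38 without DC 8 h replicate 2.

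At 22 h, 3 of the 7 differed directly between the stimuli, against 2.43% of all genes (1.23% higher with filaments and 1.2% lower, or 50.6% of calls higher, against 32.8% when scaled by library size alone). Ccl9 (2.73 ± 0.35, adjusted p = 0.000491, edgeR) and Ccl5 (1.47 ± 0.30, adjusted p = 0.0165) were higher with filaments, or 6.62-fold and 2.76-fold. Cxcl10 was lower with filaments (-5.34 ± 0.86, adjusted p = 0.00249), or 40.5-fold. No IF library overlapped a DC library for these 3 genes, nor for Ccl4, as was so for 19.9% of all genes. The Ccl9 and Cxcl10 calls held in all 6 fits without 1 library, with Cxcl10 at -4.01 without DC 22 h replicate 2. The Ccl5 call was lost without IF 22 h replicate 3 (adjusted p = 0.0631) or DC 22 h replicate 1 (adjusted p = 0.0547), and when only both groups entered the fit (adjusted p = 0.125, or 0.140 with the replicate number as a block). Among the NK cell markers, all 3 tested had an unadjusted p under 0.05 between these groups, and Fcer1g, a receptor signalling chain that myeloid cells also make, was higher with filaments (1.26 ± 0.27, adjusted p = 0.0206), a call lost without DC 22 h replicate 1 or IF 22 h replicate 2 or 3 (adjusted p = 0.0515 to 0.1002). NK cells, most of which the CD8+ sort would remove, also make Ccl5, and their part in its level was not tested. Ccl4 missed the threshold (2.09 ± 0.57, adjusted p = 0.0686) and passed without DC 22 h replicate 2 (3.598, adjusted p = 0.000172), without IF 22 h replicate 1 (2.33, adjusted p = 0.0265) or with the replicate number as a block (2.44, adjusted p = 0.0281).

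Within filaments, Cxcl10 was the 1 chemokine that changed between 8 h and 22 h (-5.35 ± 0.86, adjusted p = 0.00830, edgeR), against 1.12% of all genes (0.637% higher at 22 h and 0.48% lower). That call was lost without IF 22 h replicate 3, the deepest library (-5.15, adjusted p = 0.0612), and the difference was -4.70 without IF 8 h replicate 3. Ccl5 was 0.78 ± 0.30 higher at 22 h (adjusted p = 0.234) and Ccl9 0.72 ± 0.33 higher (adjusted p = 0.316), neither past the threshold, although neither gene's IF groups overlapped, as was so for 21.5% of all genes. Within dendritic cells no chemokine passed between 8 h and 22 h, against 0.48% of all genes. At an unadjusted p under 0.05 there were 2, Ccl3 and Ccl1 (adjusted p = 0.517 and 0.343, edgeR), and DESeq2 called 0. Same-numbered libraries of these 2 groups deviated together, but so did replicate 1 of each group with replicate 3 of the other. A fit of only both groups with the number as a block called 2: Cxcl10 (-1.51, adjusted p = 0.0133) and Ccl3 (1.67, adjusted p = 0.0158). In that fit 166 of all genes passed, against 52 in the fit of 15 libraries. No gene passed the threshold for a change with time in the difference between stimuli (0.0% of all genes, with 858 at an unadjusted p under 0.05 in edgeR and 40 passing in DESeq2). Of the 7, Cxcl10 (-4.01 ± 1.06, unadjusted p = 0.00154, adjusted p = 0.379) and Ccl5 (1.24 ± 0.42, unadjusted p = 0.00966, adjusted p = 0.491) had an unadjusted p under 0.05, and DESeq2 called 0.

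DC replicates 2 stood apart from the other DC replicates in these genes at both times. At 8 h, replicate 2 was the highest of its group in Ccl3, Ccl4, Xcl1 and Cxcl10 and the lowest in Ccl5 and Ccl9. At 22 h it was the highest in those same 4, in Ccl1 and in Ccl9, and the lowest in Ccl5. At 22 h it had 6.61 times the next highest Ccl4, 5.42 times the next highest Xcl1 and 5.31 times the next highest Cxcl10. Gzmb, a cytotoxic granule protease, had 282 CPM in DC 8 h replicate 2 and 591 CPM in DC 22 h replicate 2, against 67.9 to 187 CPM in the other 4 DC libraries. The summed share of 18 dendritic cell markers was lowest in replicate 2 of each DC group (0.0903% against 0.113% and 0.130% at 8 h, 0.0518% against 0.0719% and 0.0732% at 22 h).

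**Figure D3:**
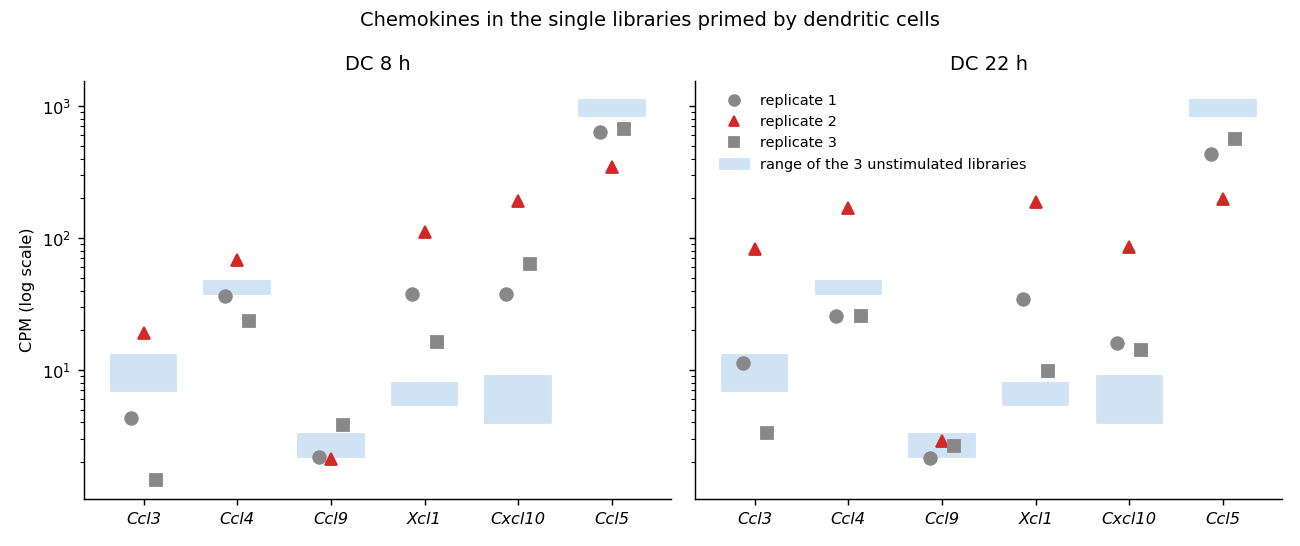
Level of 6 chemokines (horizontal) in CPM (vertical, log scale) in each DC 8 h library (left) and DC 22 h library (right). Red triangles are replicates 2, grey symbols the other replicates, and the shaded boxes span the 3 unstimulated libraries. At 22 h replicate 2 has 169 CPM of Ccl4 while the others have 25.5 and 25.6 CPM, below the unstimulated box.

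With both DC replicates 2 left out, a choice made after seeing the data, filaments and dendritic cells differed in more chemokines. At 22 h the count was 6 of 7, against 3.11% of all genes in that fit: Ccl3 (2.81, adjusted p = 0.00881, edgeR), Ccl4 (3.598, adjusted p = 2.08e-05), Ccl5, Xcl1 (3.07, adjusted p = 0.00247) and Ccl9 were higher with filaments and Cxcl10 was lower (-4.00, adjusted p = 0.000446). At 8 h it was 4, against 0.881% of all genes: Ccl3 (4.07, adjusted p = 0.00302), Ccl4 (3.40, adjusted p = 0.000112), Xcl1 (2.18, adjusted p = 0.0462) and Ccl9 (1.81, adjusted p = 0.0462). Against unstimulated cells, DC 8 h then had Cxcl10 (3.16) and Xcl1 (1.96) higher and Ccl5 lower (-0.64, adjusted p = 0.0404), against 6.35% of all genes. DC 22 h had 1 call, against 6.29% of all genes, Ccl5 (-0.99, adjusted p = 0.00303), with Xcl1 at 1.68 (adjusted p = 0.0598) and Cxcl10 at 1.46 (adjusted p = 0.0734).

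Receptors of these chemokines were read from the same T cell libraries. Cxcr3, the Cxcl10 receptor, had 48.0 to 62.5 CPM unstimulated and fell at IF 8 h to 18.8 to 30.7 CPM (-1.17 ± 0.28, adjusted p = 0.0198, edgeR) and at DC 8 h to 12.9 to 18.9 CPM (-1.74 ± 0.29, adjusted p = 0.00132). The IF 8 h call was lost without IF 8 h replicate 2 or 3 or unstimulated replicate 1 (adjusted p = 0.0665 to 0.0916). At 22 h it had 47.5 to 84.1 CPM with filaments and 20.8 to 41.7 CPM with dendritic cells, a direct difference of 1.09 ± 0.27 (adjusted p = 0.0441) that passed without IF 22 h replicate 1 and was lost without any other library of both groups (0.0507 to 0.243). The IF 22 h level was also above IF 8 h (1.52 ± 0.28, adjusted p = 0.0156), a call lost without replicate 2 or 3 of either group (0.0598 to 0.109). Xcr1, a receptor of dendritic cells, had 9.54 to 45.6 CPM in unstimulated libraries and at most 9.38 CPM in stimulated ones, with falls past the threshold at IF 22 h (adjusted p = 0.0184) and DC 22 h (adjusted p = 0.00223). The IF 22 h fall of Xcr1 was lost without IF 22 h replicate 2 (0.0700) or unstimulated replicate 3 (0.108). Ccr1 and Ccr3 had at most 2 counts in any library and Ccr8 at most 25, and none of these 3 was tested.

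Among 30 other chemokine ligands, 22 were in the tables and 7 were tested. Ccl22, a Ccr4 ligand that mature dendritic cells and activated T cells make, had 0.0 to 0.147 CPM unstimulated and 10.3 to 18.2 CPM at DC 8 h (adjusted p = 0.000157, edgeR). It was higher in DC than in IF cells at 8 h (adjusted p = 0.0211) and at 22 h (adjusted p = 0.0188), the opposite order to Ccl9. These direct calls were lost without DC 8 h replicate 1 or 2 or IF 8 h replicate 1 or 3 (0.0537 to 0.113), and without DC 22 h replicate 1 or IF 22 h replicate 2 or 3 (0.0599 to 0.0862). Cxcl16, the Cxcr6 ligand, averaged 9.58 CPM at DC 8 h against 0.170 CPM at IF 8 h (adjusted p = 0.0414). Cxcl9, another Cxcr3 ligand, averaged 2.63 CPM unstimulated and 0.0170 CPM at IF 22 h (adjusted p = 0.0421). The Cxcl16 and Cxcl9 calls were lost without any 1 library of the groups compared (0.0865 to 0.199 and 0.0505 to 0.142). Against unstimulated cells, 1 of the 7 rose and none fell at IF 8 h, 2 rose at DC 8 h, and 1 rose and 1 fell at each 22 h group. Between 6.08% and 7.76% of all genes passed in these 4 comparisons, and 1 or 2 of 7 ligands in edgeR is too small a count to set apart from that share. DESeq2 called 4 of the 7 at DC 8 h and 3 at DC 22 h, against 1175 and 1267 of all genes, and 1 at IF 8 h and 2 at IF 22 h. In edgeR 5 had an unadjusted p under 0.05 at DC 8 h and 4 at DC 22 h, against 2261 and 2405 of all genes, and 2 in each IF group.

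Fscn1, a cytoskeletal protein of mature dendritic cells, had 126 to 168 CPM at DC 8 h and 72.9 to 94.8 CPM at DC 22 h. It had 0.0 to 6.75 CPM unstimulated, 0.268 to 0.663 CPM at IF 8 h and 5.83 to 43.8 CPM at IF 22 h. Fscn1 was thus also above unstimulated cells at IF 22 h (3.604 ± 0.82, adjusted p = 0.0158, edgeR), a call lost without IF 22 h replicate 3 (2.79) or unstimulated replicate 1 (2.89) or 2 (adjusted p = 0.0613 to 0.0836). Of the 15 dendritic cell markers tested, 6 fell and none rose at IF 8 h, 1 rose and none fell at DC 8 h, 1 rose and 3 fell at IF 22 h, and 1 rose and 4 fell at DC 22 h. Over all genes, 2.63% to 3.41% were higher and 3.44% to 4.72% lower in these comparisons, so a count of 1 of 15 in edgeR lies near that share. In either direction, DESeq2 called 3 of the 15 at DC 8 h, against 1175 of all genes, 6 at IF 8 h and 5 in each 22 h group. At DC 8 h 7 had an unadjusted p under 0.05 in edgeR, against 2261 of all genes. At IF 8 h, IF 22 h and DC 22 h there were 8, 7 and 5. Itgax, which encodes CD11c, averaged 14.5 CPM unstimulated, 12.7 CPM at IF 8 h, 5.32 CPM at DC 8 h, 20.0 CPM at IF 22 h and 3.95 CPM at DC 22 h, and was higher at IF 22 h than at DC 22 h (2.32 ± 0.46, adjusted p = 0.0124), a call lost without DC 22 h replicate 1 (0.0652) or IF 22 h replicate 3 (0.0942). The summed share of the 18 was 0.0618% to 0.136% unstimulated, 0.0234% to 0.0504% at IF 8 h, 0.0903% to 0.130% at DC 8 h, 0.0415% to 0.0631% at IF 22 h and 0.0518% to 0.0732% at DC 22 h. Zbtb46, which defines conventional dendritic cells, was at 0 in all unstimulated and IF 8 h libraries and had 1.18 to 2.28 CPM at DC 8 h, 0.120 to 0.408 CPM at IF 22 h, where no dendritic cells were added, and 0.442 to 0.684 CPM at DC 22 h. Dendritic cells also make Cxcl10, Ccl22 and Cxcl16, and the part of their RNA in the DC levels of these genes was not tested.

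Interferon-induced genes were read beside Cxcl10. Of 18 genes on that list, 16 were tested. At IF 8 h 2 rose and 6 fell, and at DC 8 h 2 rose and none fell. At IF 22 h none rose and 12 fell, and at DC 22 h 1 rose and 2 fell (4 and 0 when scaled by library size alone). Of all genes, 3.04% were higher and 4.72% lower at IF 8 h, 2.75% and 4.07% at DC 8 h, 2.63% and 3.44% at IF 22 h and 3.41% and 4.35% at DC 22 h. Their median log2 fold change was -2.86 at IF 22 h and -0.38 at DC 22 h. Gbp2, an interferon-induced GTPase, averaged 131 CPM unstimulated, 1123 CPM at IF 8 h, 1061 CPM at DC 8 h, 186 CPM at IF 22 h and 506 CPM at DC 22 h, and it rose at IF 8 h, DC 8 h and DC 22 h (adjusted p = 0.000833, 0.00115 and 0.0157, edgeR). DC replicates 2 were again the highest, with 1977 CPM against 534.9 and 672 CPM at 8 h and 894 CPM against 369 and 256 CPM at 22 h. Without them the Gbp2 difference from unstimulated cells went from 3.02 to 2.20 at DC 8 h and from 1.95 to 1.28 at DC 22 h, where the call was lost without replicate 2 (adjusted p = 0.0853) and without unstimulated replicate 2 or 3 (0.0671 and 0.0729). In the direct test, where 1.2% of all genes were lower with filaments, IF 22 h had 10 of the 16 below DC 22 h, led by Isg15 (-4.19 ± 0.55, adjusted p = 0.000521, and -5.02 without IF 22 h replicate 3), Ifit1 (-3.65 ± 0.48, adjusted p = 0.000521) and Irf7 (-2.11 ± 0.31, adjusted p = 0.00101).

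The genes most like a chemokine were those with the highest Pearson r of log2 CPM over the 15 libraries, among 6954 genes with a mean of at least 10 CPM. This r is a description, since the libraries share groups and the genes share libraries. For Cxcl10 they were Psme2 (0.963), Tap1 (0.937) and Irf1 (0.913), a proteasome activator subunit, the peptide transporter of the MHC class I pathway and an interferon-induced transcription factor. Psme2 had 198 to 218 CPM unstimulated, 264 to 340 CPM at IF 8 h, 331 to 513 CPM at DC 8 h, 148 to 172 CPM at IF 22 h and 222 to 325 CPM at DC 22 h, so that it too was lowest in the IF 22 h libraries. Ccl4 was most like Itm2a (0.939), Egr2 (0.928), a transcription factor induced through the T cell receptor, and Bmi1 (0.927). Ccl9 also had Itm2a first (0.917), then the costimulatory receptor Cd28 (0.913) and the transcription factor Myb (0.901). Itm2a had 197 to 264 CPM at IF 8 h and 134 to 237 CPM at IF 22 h, against 24.2 to 56.4 CPM in the 9 other libraries. Ccl3 had an r of 0.915 with Bmi1 and 0.904 with Ccl4.

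**Figure D4:**
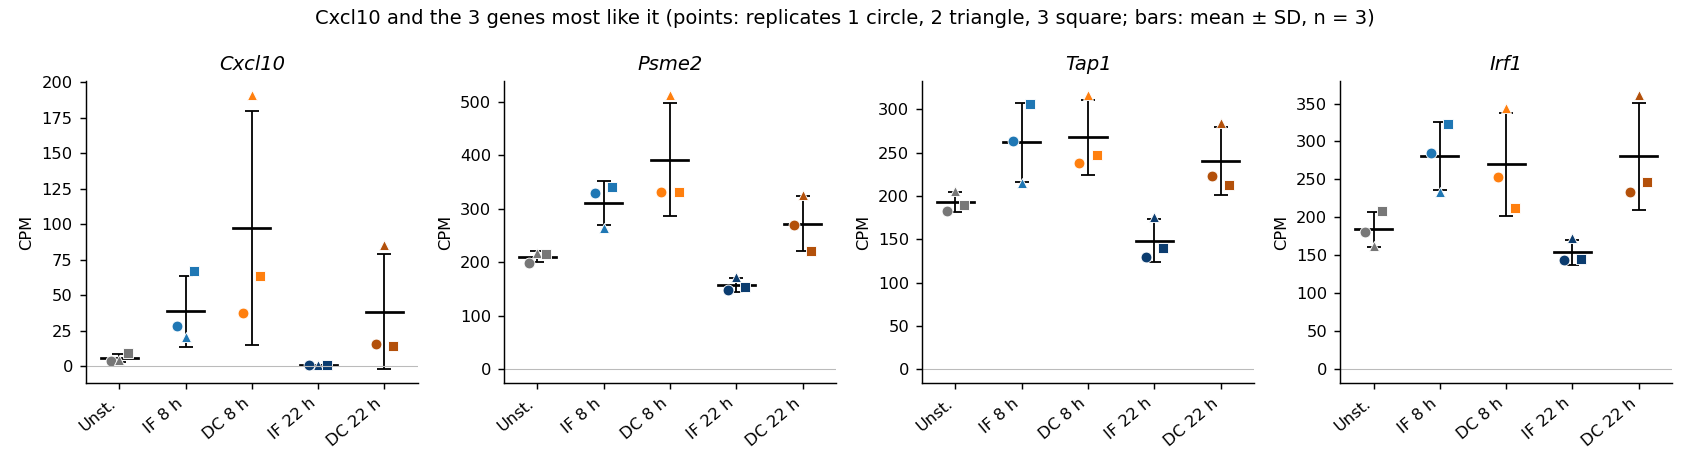
Levels in CPM (vertical, linear axes) of Cxcl10 and of Psme2, Tap1 and Irf1 in the 3 libraries of each group (horizontal), with mean ± SD (n = 3). All 4 genes have their lowest group mean at IF 22 h, from 0.971 CPM for Cxcl10 to 158 CPM for Psme2.

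Xcl1 was most like Ybx3 (0.959), Spcs3 (0.959) and the sterol synthesis enzyme Cyp51 (0.953). Ccl1 was most like Eno3 (0.936), Cul4b (0.913) and Tmem167 (0.896), and Ccl5 like Ubald1 (0.952), AI462493 (0.949) and S100a11 (0.949). Among the 7 themselves r was highest for Ccl3 with Ccl4 (0.904), Ccl4 with Ccl9 (0.860) and Ccl4 with Xcl1 (0.837). It was lowest for Ccl5 with Cxcl10 (-0.797), and Cxcl10 had r between -0.797 and 0.029 with the other 6.

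Other effector products and regulators of chemokine messages were read from the same libraries. Of 10 cytokines and effector proteins that activated CD8+ T cells make with chemokines, 7 were tested, and 0 passed against unstimulated cells in edgeR in any of the 4 groups. At an unadjusted p under 0.05 there were 1 at each 8 h group and 2 at each 22 h group, DESeq2 called 1 at DC 8 h and 0 in the others, and scaling by library size alone called 1 at DC 8 h and 1 at DC 22 h. Gzmb was lower in IF 22 h than DC 22 h (-2.96 ± 0.56, adjusted p = 0.00804, edgeR). The difference was -1.97 without DC 22 h replicate 2 (adjusted p = 0.0232), and the call was lost without IF 22 h replicate 2 (0.0554). Of 19 effector and memory CD8+ T cell genes tested, 6 were higher with filaments than with dendritic cells at 22 h and 1, Gzmb, was lower. Over all genes 1.23% were higher and 1.2% lower. Zfp36, whose protein binds AU-rich elements and promotes decay of cytokine and chemokine messages, averaged 131 CPM unstimulated and fell in all 4 groups, to means of 36.1, 37.5, 45.6 and 40.1 CPM at IF 8 h, DC 8 h, IF 22 h and DC 22 h (adjusted p = 0.000394, 0.000473, 0.00185 and 0.000775). Jun, a subunit of AP-1, fell in all 4, and at 22 h it was lower with filaments than with dendritic cells (-3.63 ± 0.47, adjusted p = 0.000491, and -2.77 without DC 22 h replicate 2). Irf4, a factor induced by T cell receptor signals, rose at IF 8 h (3.47 ± 0.77, adjusted p = 0.0115), a call lost without unstimulated replicate 1 (0.0567) or 2 (0.0539). Nfatc1 rose at IF 22 h (1.26 ± 0.23, adjusted p = 0.00304) and was 1.18 ± 0.23 above DC 22 h (adjusted p = 0.00926), the latter call being lost without DC 22 h replicate 1 (0.0570) or IF 22 h replicate 3 (0.0547). Of the 13 decay regulators and transcription factors on that list, 3 rose and 3 fell at IF 8 h, 1 and 4 at DC 8 h, 2 and 3 at IF 22 h, and none and 3 at DC 22 h. Over all genes, 6.08% to 7.76% passed in these 4 comparisons.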

How the data were processed

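The deposited tables hold raw counts per gene for each library, made by the authors; per the submitters' processing notes they used BWA and the mm10 build, and the counting tool, annotation, strand setting and use of molecular tags are not given in the sources used here. All 17493 rows name a gene. The 15 libraries were fitted together with edgeR 4.0.16 (R 4.3.3): filterByExpr (minimum count 10, total 15), TMM, a quasi-likelihood fit of 5 group means with prior count 0.125, and Benjamini-Hochberg adjustment over 10831 genes. The SE is the log2 fold change over the square root of F. The fit was tested on simulated data. CPM use TMM-scaled totals, and likeness uses log2 CPM with prior count 2. Library totals limit low genes such as Ccl1, and the floor of 3 counts covers counting error only. DESeq2 1.42.0 was an alternative.

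The 7 members and the gene lists were chosen with earlier results of these data known. In each comparison the 7 members are named, the receptors once with their range, of other lists at most the 3 genes with the smallest p past the threshold, and for each member the 3 genes most like it; some of the genes this rule names are not reported here. Mean marker and cytokine levels named beside these were added to show composition.

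The replicate numbers come from the titles (Don1 to Don3 in every group, not defined in the labels). They were checked as pairs by the correlation of same-numbered libraries' deviations from their group means: r was -0.189 to 0.399 over 30 pairs (median 0.004), against -0.307 to 0.207 over 60 pairs of other numbers. For DC 22 h and DC 8 h all 3 were over 0.1 (0.116, 0.399 and 0.238), and elsewhere at least 1 pair was not. Between these groups r was also 0.117 for DC 8 h replicate 3 with DC 22 h replicate 1. It was 0.107 for DC 8 h replicate 1 with DC 22 h replicate 3, so these values do not show that all 3 numbers pair. Fits without the block are the main ones, and blocked values stand beside the calls they change.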

Additional observations from a re-analysis of the deposited data

Results flagged for a closer look

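The direct tests of the stimuli picked out 5 chemokine differences, given here as log2 fold changes. At 8 h Ccl4 (2.88) and Ccl9 (1.94) were higher with filaments than with dendritic cells, the Ccl9 call being lost with counts thinned to the smallest library. At 22 h Ccl5 (1.47) and Ccl9 (2.73) were higher and Cxcl10 (-5.34) was lower with filaments. Within filaments Cxcl10 differed between the times (-5.35, 22 h against 8 h). Single outlying libraries were not tested for in groups of 3.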

How the results depend on the processing

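The number of the 7 chemokines past the threshold was recomputed under each other setting named here and without each library. With DESeq2, DESeq2's size factors or library size alone, every count stayed within 1.5 times its main value. At an adjusted p of 0.01 the count was 1 for DC 8 h and 0 for DC 22 h against unstimulated cells, and 0 for IF 8 h against DC 8 h. Without a low-count filter it was 5 for IF 8 h against DC 8 h, 5 for IF 22 h against DC 22 h, 2 for IF 22 h against IF 8 h, 2 for DC 22 h against DC 8 h and 3 for the interaction, and the cause was not tested. With a mean of at least 10 CPM, where fewer genes were tested, it was 2 for IF 22 h against unstimulated cells and 1 for IF 8 h against DC 8 h, and with thinned counts also 1 for the latter. With only the groups compared it was 1 for DC 22 h against unstimulated cells and 1 for IF 8 h against DC 8 h. With IF 22 h replicate 1 alone for its group, assumed to vary like the other groups, it was 0 in the IF 22 h comparisons with unstimulated, DC 22 h and IF 8 h cells. With both DC replicates 2 left out, a choice made after seeing the data, it was 1 for DC 22 h against unstimulated cells, 4 for IF 8 h against DC 8 h and 6 for IF 22 h against DC 22 h.

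Without 1 library of the groups compared, the count ranged from 3 to 4 for IF 8 h, 1 to 2 for DC 8 h, 3 to 4 for IF 22 h and 1 to 4 for DC 22 h against unstimulated cells. It was 0 to 1 for IF 8 h against DC 8 h, 2 to 5 for IF 22 h against DC 22 h and 0 to 1 for IF 22 h against IF 8 h. No called difference turned its direction. Among those not called, DC 22 h against unstimulated cells ranged from -0.45 to 2.22 for Ccl3 and from -0.67 to 1.24 for Ccl4, negative without DC 22 h replicate 2, and was -0.45 and -0.67 with both DC replicates 2 left out. Ccl3 in DC 22 h against DC 8 h ranged from -0.18 to 3.41.

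With the replicate number as a block in the fit of 15 libraries, the count was 1 for DC 8 h against unstimulated cells and within 1.5 times its main value elsewhere. With the block and only the groups compared, a fit added after seeing the data, it was 1 for DC 22 h against unstimulated cells, 1 for IF 8 h against DC 8 h and 2 for DC 22 h against DC 8 h. The titles carry that number as Don1 to Don3 in every group without defining it, so whether it pairs the groups is not settled by the labels. With the block in the fit of 15 libraries, the calls that changed were Xcl1 at DC 8 h against unstimulated cells and Ccl4 at IF 22 h against DC 22 h.

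Over all genes the calls moved too. The 840 of IF 8 h against unstimulated cells ranged from 267 to 1299 over the alternatives, the 739 of DC 8 h from 307 to 1175, the 658 of IF 22 h from 99 to 1101 and the 840 of DC 22 h from 335 to 1586. The 72 of IF 8 h against DC 8 h ranged from 11 to 215, the 263 of IF 22 h against DC 22 h from 8 to 759, the 121 of IF 22 h against IF 8 h from 0 to 541, the 52 of DC 22 h against DC 8 h from 0 to 251, and the interaction from 0 to 279. Scaling by library size alone moved the median of all genes to between 0.22 and 0.37 in the 4 comparisons with unstimulated cells, so directions here are relative to TMM. Depth limits Ccl1 most, with 0 to 54 counts per library.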
